A study of Mus musculus with 56 samples.

Results

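The transcripts described here are those of 6 small heat shock proteins (Hspb1, Hspb2, Hspb6, Hspb7, Hspb8 and Cryab) and of Bag3, their co-chaperone, which were taken by name from the deposited table and make up 7 of its 14871 genes. They were measured by bulk RNA sequencing of whole tibialis anterior, the muscle along the shin, in 56 mouse samples in which the giant spring protein titin could or could not be cut. Mice carried the titin mechanical knock-out allele (mKO), whose titin holds a cleavage site for the TEV protease, on both chromosomes (homozygous), on 1 (heterozygous) or on neither (wild type). Each muscle had been injected with an adeno-associated virus (AAV) that encodes green fluorescent protein fused to TEV protease, or with saline, and was collected 3, 7 or 21 days post injection (dpi). AAV and saline groups held 4 and 4 homozygous samples at 3 dpi, 5 and 4 at 7 dpi, and 4 and 4 at 21 dpi. Heterozygous muscle was sampled at 7 dpi alone, with 4 AAV and 4 saline samples. Wild-type muscle had 5 AAV and 3 saline samples at 3 dpi, 4 and 3 at 7 dpi, and 4 and 4 at 21 dpi. Wild-type AAV muscle received virus and protease but has no site to cut, so it measured the vector response, and saline muscle of the mKO genotypes carried the altered titin uncut. The promoter that drives the transgene, the ages of the mice and the number of animals behind each group are not stated in the labels, so the spread between samples may be partly technical.

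Small heat shock proteins are chaperones that work without ATP: they bind unfolding proteins and hold them in a state from which other chaperones can refold them or pass them on for degradation. In striated muscle, Cryab (alpha B-crystallin) and Hspb1 (Hsp27, called Hsp25 in the mouse) are known to move to the elastic spring region of titin and to the Z-disc when fibres are stressed. Hspb7 binds the Z-disc crosslinker filamin C, and Hspb8 forms with Bag3, Hsp70 and the ubiquitin ligase Stub1 a complex that hands damaged filamin to autophagy, which is called chaperone-assisted selective autophagy. Hspb2 binds the myotonic dystrophy protein kinase, and Hspb6 (Hsp20) is a substrate of cyclic nucleotide-dependent kinases that associates with actin filaments.

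The deposited values are normalised read counts, which are scaled to an effective library size. Libraries held 6.9 M to 27.18 M reads, and the second lowest held 14.98 M. The lowest was homozygous AAV replicate 2 at 7 dpi. Even the least abundant member, Hspb2, had 441 reads in the library where it was counted lowest. The transgene was found at 56 to 34407 reads in AAV libraries and at 0 to 6 reads in saline libraries. The labelled tissue was checked with 16 skeletal fibre markers, whose summed level was 81080 to 186900 normalised counts in the AAV groups of homozygous muscle, heterozygous muscle and wild-type muscle at 21 dpi, and 165300 to 227100 in all other groups. Of 5 cardiac markers that should be absent, Nppa and Myl7 were not analysed here, Tnni3 was too low to be tested, and Myh6 and Tnnt2 were found. Together Tnni3, Myh6 and Tnnt2 summed to 7.45 to 14.9 normalised counts in the saline groups. Their sum was 25.4 to 37.5 in heterozygous AAV muscle at 7 dpi. At 21 dpi it was 20.5 to 66.1 in wild-type and 10.4 to 120.8 in homozygous AAV muscle, so these markers were not low throughout.

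Sequence upstream of the members is shown because heat shock factor 1, the main activator of chaperone genes, is known to bind inverted repeats of GAA and TTC. RefSeq promoter windows (GRCm38.p6, 250 bases before to 50 after a transcript start, 300 in all) were found for 5 of the 7 members, Hspb6 having 2 windows. The 8-base pattern GAANNTTC, searched on both strands and equal to its own reverse complement, occurred in windows of Hspb1, Hspb6, Hspb8 and Bag3, for Hspb6 in the downstream of its 2 windows alone, and in 7.86% of all 32851 windows. Each of these 4 genes held the exact letters GAAGTTTC, which occur on either strand in 1.21% of all windows; these letters were singled out after the sequences had been seen. The 30 bases around each are given here 5′ to 3′ on the strand of the gene, with the match in capitals.
Hspb1: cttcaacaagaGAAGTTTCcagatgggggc
Hspb6: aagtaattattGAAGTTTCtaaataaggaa
Hspb8: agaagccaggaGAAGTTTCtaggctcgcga
Bag3: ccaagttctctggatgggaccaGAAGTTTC
The Hspb1 stretch is chr5:135887791-135887820 on the plus strand with the match starting at position -117 from the transcript start, and the Hspb6 stretch is chr7:30553170-30553199 on the plus strand at -120 from the second Hspb6 start, which lies inside the annotated gene. The Hspb8 stretch is chr5:116422844-116422873 on the minus strand at 3, and the Bag3 stretch is chr7:128523603-128523632 on the plus strand at 43, so both lie just inside the transcribed region.

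Hspb1 is the only member with a second GAANNTTC match within its window, and its 250 bases upstream of the start (chr5:135887669-135887918, plus strand) are therefore shown whole, with both matches in capitals.
Hspb1 upstream: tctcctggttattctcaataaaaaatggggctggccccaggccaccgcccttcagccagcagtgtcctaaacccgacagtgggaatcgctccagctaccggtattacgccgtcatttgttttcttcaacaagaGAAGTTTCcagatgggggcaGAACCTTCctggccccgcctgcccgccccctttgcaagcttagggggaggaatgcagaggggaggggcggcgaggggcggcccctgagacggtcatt
The second match lies at -97, and the window of Hspb7 held no GAANNTTC. TTCNNGAA (8.52% of all windows) and the 2 patterns of 3 alternating GAA and TTC units (0.603% each) were in no window of the members. GGAATG or its reverse complement, the core bound by TEAD factors, was in 14.7% of all windows and in those of Hspb1 and Hspb7. In Hspb7 the match, in reverse complement, stands at position 4 in the stretch chr4:141420770-141420799 of the plus strand.
Hspb7: tggaatcccagcCATTCCaacgtacttagg
TATAAA was in 13.6% of all windows and among the members in Hspb6, and the E-box pattern CANNTG in 72.3% of all windows and in those of Hspb1, Hspb7 and Hspb8. These matches describe letters in the windows and were not tied to binding.

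Counts were divided by the merged length of all annotated exons of a gene, so that genes can be compared roughly. Which of these exons were in use was not tested, and the order, sums and shares below depend on these lengths. Per kilobase of exon, the small heat shock transcripts of saline-injected wild-type muscle at 21 dpi were led by Hspb6. There Hspb6 stood at 401 ± 39.1 normalised counts per kb and Cryab at 243 ± 20.7 (SD, n = 4). Hspb8 stood at 122 ± 4.47, Hspb7 at 99.0 ± 14.6, Hspb1 at 74.9 ± 4.45, Bag3 at 50.7 ± 0.49 and Hspb2 at 38.2 ± 2.41 per kb. The libraries of Hspb8 and Hspb7 overlapped in this order, and those of the other neighbours did not. The 6 small heat shock genes summed to 978 ± 71.9 per kb in these libraries.

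The size and make-up of the pool differed between groups. It summed to 4249 ± 447 per kb in homozygous AAV muscle at 3 dpi, against 2731 ± 567 in homozygous saline muscle (SD, n = 4 each). In heterozygous AAV muscle at 7 dpi it summed to 4866 ± 619 per kb, against 1449 ± 500 in heterozygous saline muscle (n = 4 each). In homozygous muscle it summed to 2732 ± 367 with AAV (n = 5) and 2260 ± 950 with saline (n = 4) at 7 dpi, and to 2828 ± 509 with AAV and 2314 ± 590 with saline at 21 dpi (n = 4 each), and the libraries overlapped on both days. In wild-type muscle it summed to 1355 ± 437 with AAV (n = 5) and 1378 ± 551 with saline (n = 3) at 3 dpi, to 1090 ± 129 with AAV (n = 4) and 1209 ± 255 with saline (n = 3) at 7 dpi, and to 1401 ± 326 with AAV and 978 ± 71.9 with saline at 21 dpi (n = 4 each). Hspb6 made up 13.7 ± 2.5% of the pool per kb in homozygous AAV muscle at 3 dpi and 31.4 ± 4.3% in homozygous saline muscle, while Cryab made up 37.7 ± 3.3% and 26.3 ± 2.0% in the same groups. In heterozygous muscle at 7 dpi the Hspb6 share was 17.1 ± 3.0% with AAV and 40.8 ± 2.4% with saline. Hspb8 reached its highest group share, 22.5 ± 3.2%, in homozygous AAV muscle at 21 dpi, against 9.9 ± 2.0% in homozygous saline muscle. These sums and shares are descriptions and were not tested.

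**Figure D1:**
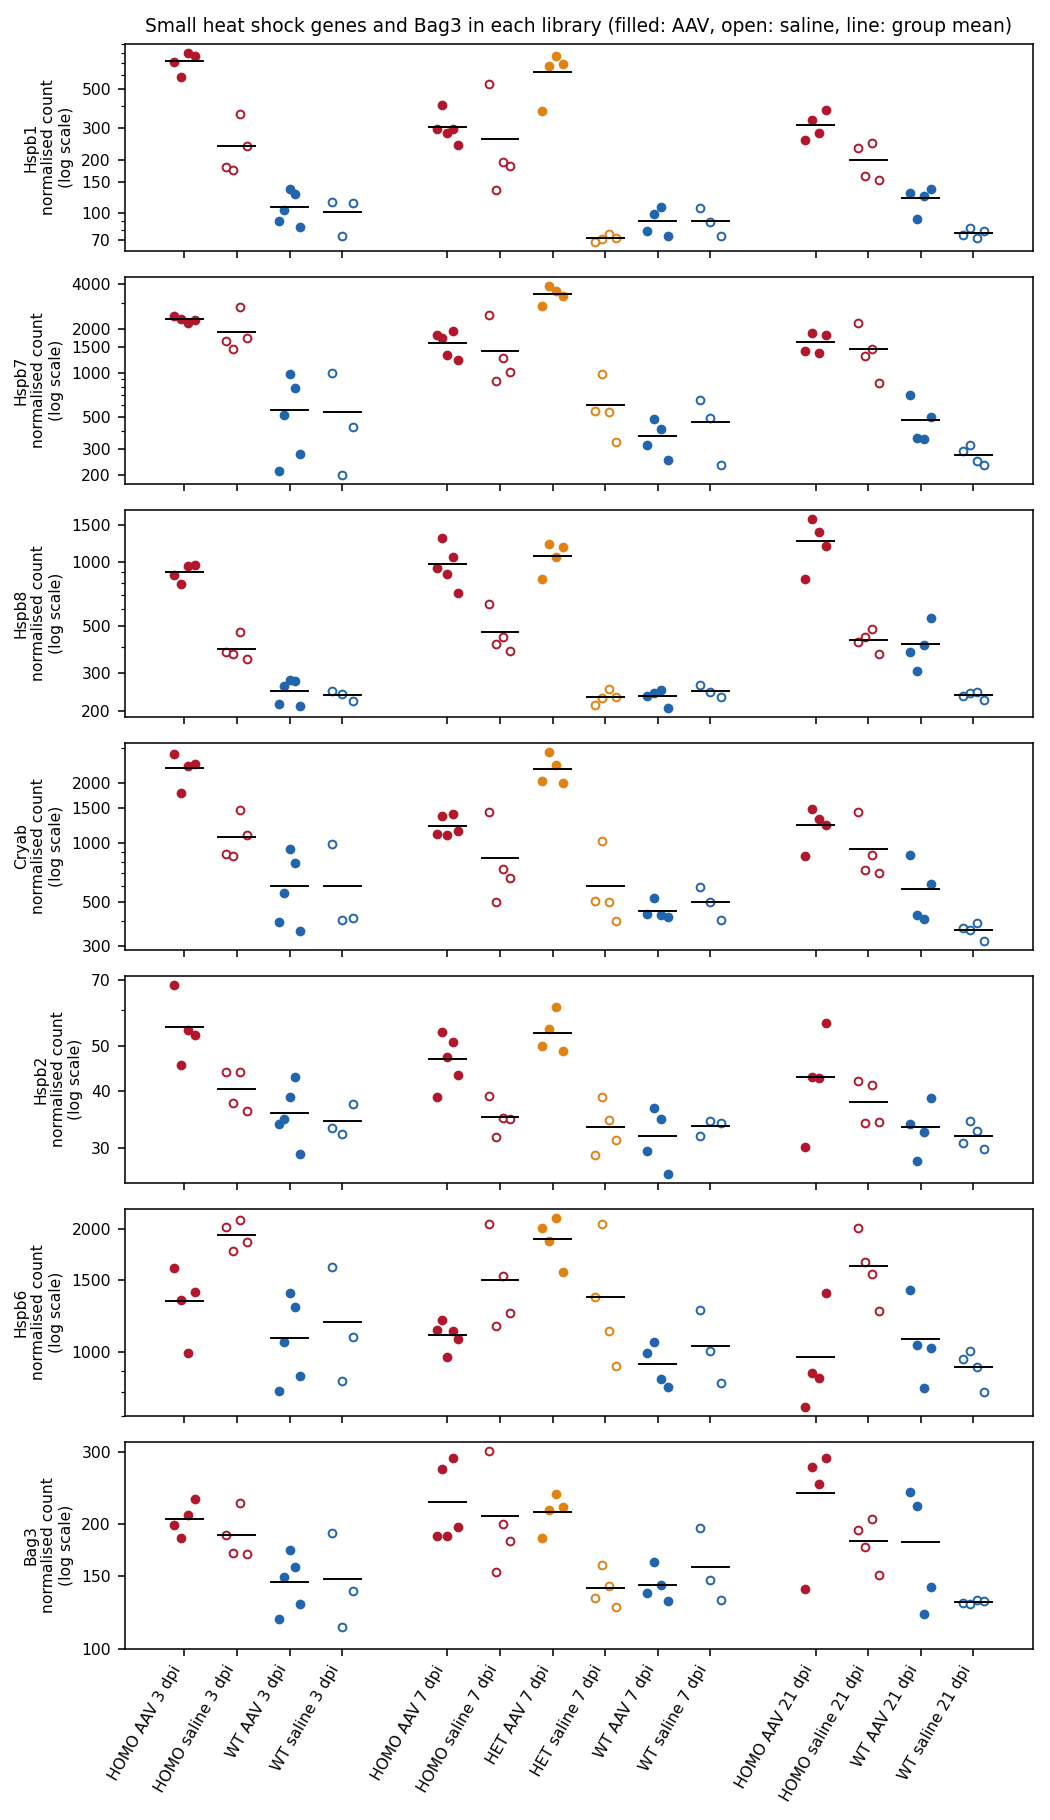
Normalised count of each of the 7 genes (log axes) in each of the 56 libraries, by group; filled points are AAV and open points saline libraries, red homozygous, orange heterozygous and blue wild type, and lines are group means. Hspb1 in heterozygous muscle at 7 dpi shows the widest gap between AAV (376 to 766) and saline (69.0 to 75.6), and Hspb7 in homozygous saline muscle lies above most wild-type libraries.

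All tests were made with limma across 13017 genes, with changes given as log2 ± SE on log2(value + 1) and p-values adjusted by Benjamini-Hochberg over all genes; a gene was called at an adjusted p under 0.05. All 7 members passed the filter on low values. In homozygous muscle, AAV against saline called 5 members at 3 dpi, 4 of them higher, where 34.6% of all genes were called (17.4% higher, 17.2% lower). At 7 dpi it called 3 members, all higher, against 43.1% of all genes (20.6% higher), and at 21 dpi 3, of which 2 were higher, against 59.3% (29.7% higher, 29.6% lower). The shares at 7 and 21 dpi (3 of 7) are near or under the background and say nothing particular of these genes. In heterozygous muscle at 7 dpi all 7 members were higher with AAV than with saline, where 40.4% of all genes were called and 19.6% were called higher. With the replicate number as a block 6 members were called there. In wild-type muscle no member was called at 3 or 7 dpi, where limma called 0% of all genes, with 430 and 210 genes at an unadjusted p under 0.05 on these days. On the recovered reads edgeR and limma voom also called 0 genes on both days, and DESeq2 called 8 at 3 dpi and 7 at 7 dpi, none of them a member. At 21 dpi 2 members were called higher in wild-type AAV muscle, against 40.9% of all genes (19.7% higher).

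**Figure D2:**
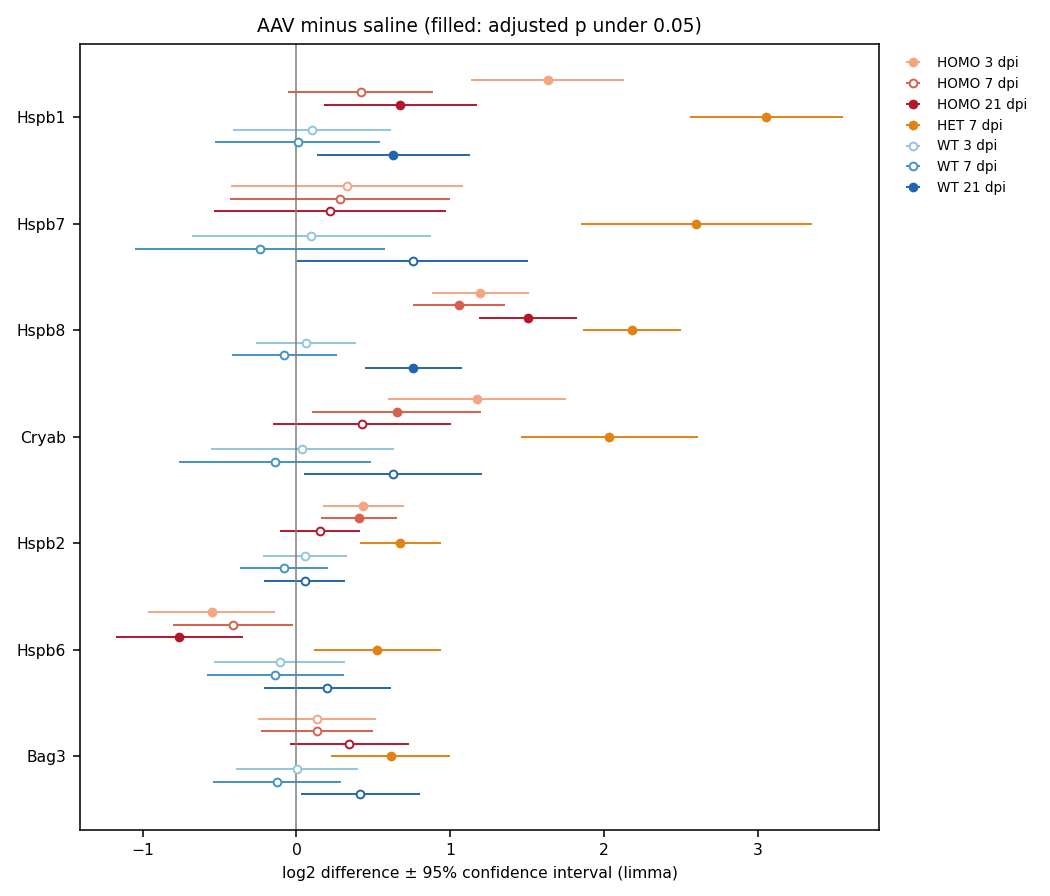
Log2 difference between AAV and saline muscle for each gene with its 95% confidence interval, in homozygous (red shades, 3, 7 and 21 dpi), heterozygous (orange, 7 dpi) and wild-type muscle (blue shades); filled points passed an adjusted p under 0.05. The heterozygous response at 7 dpi lies furthest to the right for all 7 genes, and Hspb6 is the only gene with points on both sides of 0 that passed.

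Hspb1 (chromosome 5, 135887919 to 135889563 of GRCm38, plus strand) and Cryab (chromosome 9, 50751325 to 50756636, plus strand), the pair known to bind the titin spring, rose together at 3 dpi in homozygous muscle and at 7 dpi in heterozygous muscle. At 3 dpi Hspb1 stood at 716, 586, 797 and 772 normalised counts in homozygous AAV muscle, against 182, 174, 361 and 239 in homozygous saline muscle. Cryab stood at 2817, 1786, 2441 and 2503 with AAV, against 878.5, 852, 1457 and 1090 with saline. Neither gene's groups overlapped. The changes were 1.64 ± 0.25 for Hspb1 (adjusted p = 2.02e-06) and 1.17 ± 0.29 for Cryab (adjusted p = 0.00137).

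At 7 dpi in heterozygous muscle Hspb1 stood at 376, 673, 766 and 693 with AAV and at 69.0, 71.5, 75.6 and 71.8 with saline, a change of 3.06 ± 0.25 (adjusted p = 2.92e-13). Cryab stood at 2047, 2863, 2468 and 2003 with AAV and at 507, 1017, 498 and 398 with saline, a change of 2.04 ± 0.29 (adjusted p = 2.45e-07). The lowest AAV library of each gene lay above its highest saline library. In homozygous muscle on the same day Hspb1 stood at 299, 410, 281, 300 and 243 with AAV and at 534, 135, 195 and 185 with saline. The highest of these 9 values belongs to a saline library, replicate 1, and the groups overlapped (0.42 ± 0.23, adjusted p = 0.148). Without that library the change was 0.83 (adjusted p = 0.00145). Cryab in homozygous muscle at 7 dpi had a range of 1088 to 1387 with AAV and of 502 to 1433 with saline, again with replicate 1 highest, and was called at 0.65 ± 0.27 (adjusted p = 0.0492). This Cryab call ended without any 1 of the other 8 libraries, where the adjusted p was 0.0511 to 0.228, and under 6 other settings.

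At 21 dpi Hspb1 was called in both genotypes measured. In homozygous muscle it stood at 258, 335, 284 and 380 with AAV and at 233, 161, 248 and 153 with saline (0.67 ± 0.25, adjusted p = 0.0174). In wild-type muscle it stood at 130, 92.4, 125 and 137 with AAV and at 75.4, 82.7, 72.0 and 78.7 with saline (0.63 ± 0.25, adjusted p = 0.0369). In both genotypes every AAV library lay above every saline library. The homozygous call ended without AAV replicate 4, saline replicate 2 or saline replicate 4 (adjusted p of 0.0565 to 0.0714), and the wild-type call without AAV replicate 1, 3 or 4 or saline replicate 1, 3 or 4 (0.0574 to 0.104). Cryab did not pass at 21 dpi, at 0.43 ± 0.29 in homozygous and 0.63 ± 0.29 in wild-type muscle. The wild-type Cryab difference passed without AAV replicate 2 (0.75, adjusted p = 0.0454) or replicate 3 (0.77, adjusted p = 0.0477). It also passed under quantile normalization (0.0104), with columns scaled to the same total (0.00588) and with only the groups compared fitted (0.0388). The homozygous Cryab difference passed under quantile normalization (0.96, adjusted p = 0.00315) and with columns scaled to the same total (0.99, adjusted p = 0.0023).

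Hspb8 (chromosome 5, 116408491 to 116422864, minus strand), the small heat shock partner of Bag3, was the member called in most comparisons, and in homozygous muscle it was higher with AAV on every day. At 3 dpi it stood at 873, 789, 958 and 966 normalised counts with AAV, against 377, 368, 472 and 352 with saline. At 7 dpi it stood at 934, 1304, 881, 1053 and 715 with AAV, against 636, 414, 445 and 382 with saline. At 21 dpi it stood at 835, 1590, 1389 and 1192 with AAV, against 423, 443, 487 and 368 with saline. The AAV and saline libraries were apart on each day, and the changes were 1.20 ± 0.16 (adjusted p = 1.52e-07), 1.06 ± 0.15 (adjusted p = 2.87e-07) and 1.50 ± 0.16 (adjusted p = 4.76e-11). In heterozygous muscle at 7 dpi Hspb8 stood at 832, 1216, 1060 and 1175 with AAV and at 214, 231, 253 and 233 with saline (2.18 ± 0.16, adjusted p = 1.75e-14). In wild-type muscle at 21 dpi it stood at 380, 309, 408 and 545 with AAV and at 235, 242, 246 and 226 with saline (0.76 ± 0.16, adjusted p = 0.000139). These wild-type AAV libraries overlapped the homozygous saline libraries of the same day.

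Bag3 (chromosome 7, 128523616 to 128546981, plus strand) encodes the scaffold that joins Hspb8 to Hsp70, and its transcript changed less than that of its partner. It was called in 1 comparison, in heterozygous muscle at 7 dpi, with 186, 216, 237 and 220 normalised counts with AAV and 133, 160, 142 and 126 with saline (0.61 ± 0.19, adjusted p = 0.00915). These libraries did not overlap. In homozygous muscle its change was 0.14 ± 0.19 at 3 dpi, 0.13 ± 0.18 at 7 dpi and 0.34 ± 0.19 at 21 dpi, and none passed. At 21 dpi it stood at 140, 275, 251 and 290 with AAV and at 194, 177, 206 and 151 with saline, so that 1 AAV library, replicate 1, lay below all saline libraries. Without that library the change was 0.58 (adjusted p = 0.00795). With all libraries, the homozygous change at 21 dpi passed under quantile normalization (0.65, adjusted p = 0.00232). With columns scaled to the same total it passed at 7 dpi (0.52, adjusted p = 0.0098) and at 21 dpi (0.90, adjusted p = 2.46e-05). Wild-type AAV muscle at 21 dpi was split, with 239 and 222 in 2 libraries and 121 and 141 in the other 2, against 129 to 131 with saline. The split was not particular to Bag3. Over genes with enough reads, the squared standardised read difference per degree of freedom was 27.15 and 33.8 within these pairs. Between the pairs it was 78.37 to 162.26. The wild-type difference passed without AAV replicate 3 (0.59, adjusted p = 0.0186). It also passed under quantile normalization (adjusted p = 0.009) and with columns scaled to the same total (0.000822). On recovered reads it passed with edgeR (0.036) and DESeq2 (0.0261).

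Hspb7 (chromosome 4, 141420779 to 141425311, plus strand), the partner of filamin C, rose with AAV in heterozygous muscle and was called in no AAV comparison of homozygous or wild-type muscle. In heterozygous muscle at 7 dpi it stood at 2857, 3885, 3609 and 3345 normalised counts with AAV and at 547, 981, 541 and 338 with saline (2.60 ± 0.37, adjusted p = 3.39e-07). Homozygous muscle at 7 dpi held 1799, 1714, 1316, 1924 and 1228 with AAV and 2469, 880, 1261 and 1015 with saline. Every heterozygous AAV library was above every homozygous library of that day, and the homozygous AAV and saline groups overlapped (0.28 ± 0.36). At 3 dpi the homozygous AAV libraries lay close together at 2196 to 2424, within the 1441 to 2803 of saline (0.33 ± 0.37, adjusted p = 0.527), and at 21 dpi the change was 0.22 ± 0.37. In wild-type muscle at 21 dpi every AAV library (352 to 703) lay above every saline library (234 to 323), at 0.76 ± 0.37 (adjusted p = 0.101). That difference passed under quantile normalization (adjusted p = 0.0254), with columns scaled to the same total (0.0157) and with only the groups compared in the fit (0.0168). The homozygous change at 21 dpi passed under quantile normalization (0.88, adjusted p = 0.0368). The spread of Hspb7 differed between groups, with 995, 202 and 429 in wild-type saline muscle at 3 dpi.

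Hspb2 (chromosome 9, 50751078 to 50752354, minus strand) and Cryab overlap by 1030 bases on opposite strands. The libraries were made with a directional kit, but whether reads were counted by strand is not stated, so part of the reads given to one may come from the other. Hspb2 stood at 68.1, 45.5, 54.4 and 53.0 normalised counts in homozygous AAV muscle at 3 dpi and at 43.9, 37.6, 43.9 and 36.0 in homozygous saline muscle (0.43 ± 0.13, adjusted p = 0.00793). The groups did not overlap. Without AAV replicate 1 the change was 0.33 (adjusted p = 0.0606). At 7 dpi the homozygous ranges were 38.8 to 53.7 with AAV and 31.6 to 38.9 with saline, which touch (0.41 ± 0.12, adjusted p = 0.0069). In heterozygous muscle they were 48.9 to 61.1 with AAV and 28.9 to 38.8 with saline, apart from each other (0.68 ± 0.13, adjusted p = 5.06e-05). At 21 dpi the homozygous change of 0.15 ± 0.13 did not pass, but it did without AAV replicate 1 (0.31, adjusted p = 0.0396).

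Hspb6 (chromosome 7, 30552178 to 30555443, plus strand) was the only member that was lower with AAV. In homozygous muscle at 3 dpi it stood at 1603, 1339, 994 and 1398 normalised counts with AAV and at 2015, 1764, 2095 and 1854 with saline (-0.55 ± 0.20, adjusted p = 0.032). At 21 dpi it stood at 736, 889, 865 and 1393 with AAV and at 2006, 1656, 1552 and 1262 with saline (-0.76 ± 0.20, adjusted p = 0.00143), where 1 AAV library, replicate 4, lay above the lowest saline library. The summed level of 16 skeletal fibre markers was also lower in these groups. It was 109800 to 149400 in homozygous AAV muscle and 174700 to 201300 in homozygous saline muscle at 3 dpi, with 15 of 16 markers lower, and 81080 to 164000 against 205900 to 227100 at 21 dpi, with 13 lower. Over all genes 17.2% were called lower at 3 dpi and 29.6% at 21 dpi. The markers were lower too where Hspb6 was not, at 131800 to 186900 with AAV and 209100 to 214700 with saline in heterozygous muscle at 7 dpi, and at 108900 to 166300 with AAV and 200600 to 215400 with saline in wild-type muscle at 21 dpi, where Hspb6 stood at 0.53 ± 0.20 and 0.20 ± 0.20. Their part in the Hspb6 result was not tested. In whole muscle, fewer fibres and less of a transcript per fibre cannot be told apart. Both calls ended under quantile normalization (-0.12 at 3 dpi and -0.31 at 21 dpi) and when all columns were scaled to the same total (-0.26 and -0.20), a scaling that moved the median of all genes by 0.243 at 3 dpi and 0.505 at 21 dpi. The 3 dpi call also ended without AAV replicate 2 or 3 or saline replicate 1 or 3 (adjusted p of 0.0521 to 0.153). In heterozygous muscle at 7 dpi Hspb6 stood at 2008, 1863, 2117 and 1571 with AAV and at 1360, 2054, 1124 and 924 with saline, and the groups overlapped (0.53 ± 0.20, adjusted p = 0.0366). This call ended with the replicate number as a block (adjusted p = 0.0611), in a comparison where same-numbered samples were weakly correlated. It also ended without any 1 of 6 of the 8 libraries, namely AAV replicates 1, 2 and 3 and saline replicates 1, 3 and 4 (0.0519 to 0.194). In homozygous muscle at 7 dpi the change of -0.41 ± 0.20 did not pass, but it did without saline replicate 2 (-0.52, adjusted p = 0.0444).

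The homozygous allele alone went with higher levels of part of the group in saline-injected muscle, where titin had not been cut. Homozygous minus wild-type saline muscle called Hspb1, Hspb7 and Hspb8 higher at 3 dpi, where 2.28% of all genes were called and 1.71% were called higher. The same 3 genes were called higher at 7 dpi, where 2.08% of all genes were called (1.63% higher). At 21 dpi 5 members were called higher (Cryab, Hspb1, Hspb6, Hspb7 and Hspb8), against 3.32% of all genes (2.6% higher). Between heterozygous and wild-type saline muscle at 7 dpi limma called 0 members, none of them at an unadjusted p under 0.05, where 0.2% of all genes (26) were called; edgeR, DESeq2 and limma voom also called 0 members. Homozygous minus heterozygous saline muscle called Hspb1, Hspb7 and Hspb8 higher, against 5.12% of all genes (3.59% higher). The comparisons of one day share saline samples, so their agreement is no separate support.

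**Figure D3:**
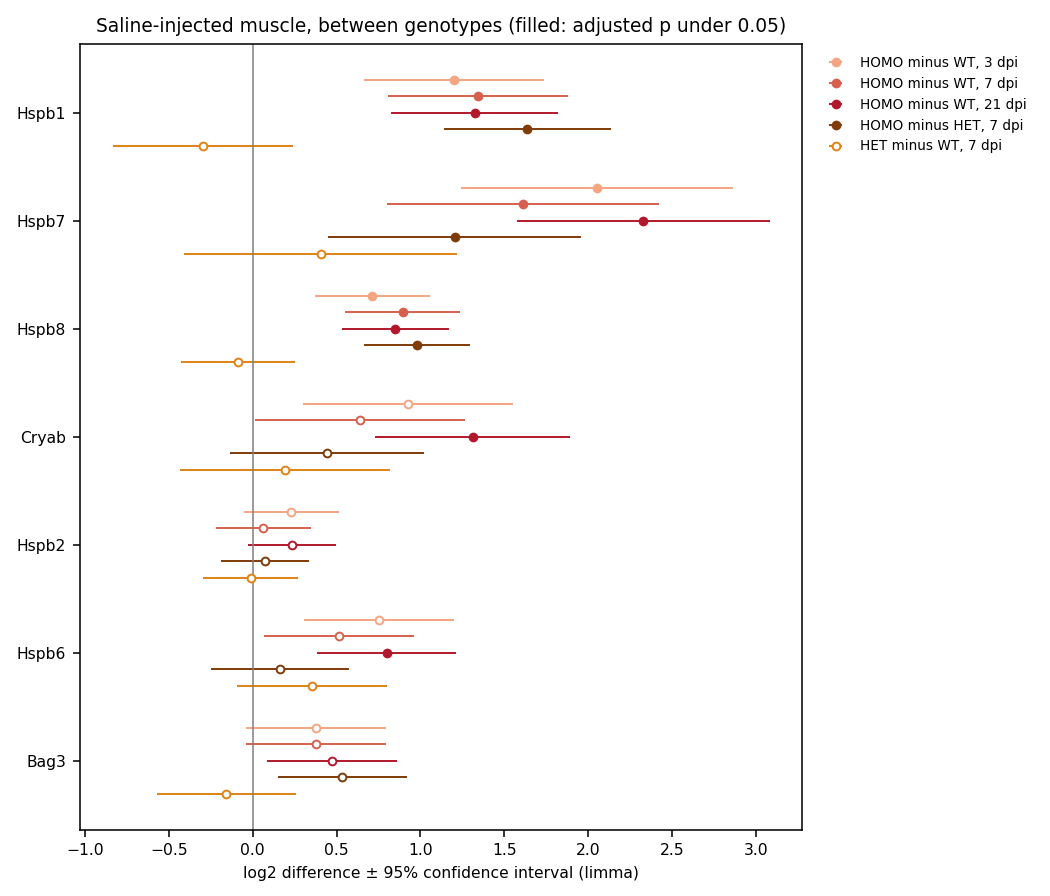
Log2 difference between genotypes in saline-injected muscle for each gene with its 95% confidence interval; filled points passed an adjusted p under 0.05. Hspb7 shows the largest differences between homozygous and wild-type muscle, 2.05, 1.61 and 2.33 at 3, 7 and 21 dpi, and no heterozygous minus wild-type difference passed.

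Hspb7 showed the largest of the homozygous minus wild-type differences in saline muscle. At 21 dpi it stood at 2168, 1309, 1450 and 855 normalised counts in homozygous saline muscle, against 291, 323, 249.3 and 234 in wild-type saline muscle, and the difference was 2.33 ± 0.37 (adjusted p = 3.49e-05). At 3 dpi, with 1441 to 2803 in homozygous and 202 to 995 in wild-type saline muscle, it was 2.05 ± 0.40 (adjusted p = 0.0015). At 7 dpi, with 880 to 2469 and 235 to 652, it was 1.61 ± 0.40 (adjusted p = 0.0186). The homozygous libraries lay above the wild-type ones on each day. The 7 dpi call ended without homozygous replicate 1 (1.30, adjusted p = 0.122) or wild-type replicate 3 (1.19, adjusted p = 0.245), and the 3 dpi call without wild-type replicate 2 (1.49, adjusted p = 0.101). Both calls also ended when only the groups compared were fitted (adjusted p = 0.0785 at 7 dpi and 0.0531 at 3 dpi). Against heterozygous saline muscle at 7 dpi, with 338 to 981, the difference was 1.20 ± 0.37 (adjusted p = 0.0462), and it did not pass without heterozygous saline replicate 1, 3 or 4 or homozygous saline replicate 1 or 3 (0.0893 to 0.263).

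Hspb1 and Hspb8 differed between homozygous and wild-type saline muscle by less than Hspb7, and with narrower errors. At 21 dpi Hspb1 stood at 233, 161, 248 and 153 in homozygous saline muscle and at 75.4, 82.7, 72.0 and 78.7 in wild-type saline muscle (1.32 ± 0.25, adjusted p = 0.000408). The differences at 3 and 7 dpi were 1.20 ± 0.27 (adjusted p = 0.00628) and 1.34 ± 0.27 (adjusted p = 0.00158). Hspb8 at 21 dpi stood at 368 to 487 in homozygous and 226 to 246 in wild-type saline muscle (0.85 ± 0.16, adjusted p = 0.00036), and differed by 0.71 ± 0.17 at 3 dpi (adjusted p = 0.0126) and by 0.90 ± 0.17 at 7 dpi (adjusted p = 0.000976). Homozygous and wild-type libraries of both genes were apart on all 3 days. At 3 dpi the Hspb1 call ended without homozygous replicate 3 (0.98, adjusted p = 0.0749) or wild-type replicate 2 (1.00, adjusted p = 0.132), and the Hspb8 call without homozygous replicate 3 or wild-type replicate 2 or 3 (0.0698 to 0.0853). Without homozygous replicate 1 at 7 dpi both calls held, at 0.93 for Hspb1 (adjusted p = 0.0244) and 0.74 for Hspb8 (adjusted p = 0.0126). The Hspb1 call at 7 dpi ended when only the groups compared were fitted (1.34, adjusted p = 0.13). Against heterozygous saline muscle the differences were 1.64 ± 0.25 for Hspb1 (adjusted p = 1.57e-05) and 0.98 ± 0.16 for Hspb8 (adjusted p = 3.98e-05). Bag3, at 0.54 ± 0.19 in that comparison, was not called but passed without homozygous saline replicate 2 (0.67, adjusted p = 0.0422). It also passed with columns scaled to the same total (0.605, adjusted p = 0.0355) and with DESeq2 (0.57, adjusted p = 0.0497).

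Cryab and Hspb6 differed between saline genotypes at 21 dpi. Cryab stood at 1425, 726, 865 and 701 in homozygous saline muscle and at 369, 358, 392 and 319 in wild-type saline muscle (1.31 ± 0.29, adjusted p = 0.00309). Hspb6 stood at 2006, 1656, 1552 and 1262 in homozygous and at 964, 1005, 919.5 and 797 in wild-type saline muscle (0.80 ± 0.20, adjusted p = 0.0162). The genotypes did not overlap in either gene. The Hspb6 call ended without homozygous replicate 1 (0.69, adjusted p = 0.1) or wild-type replicate 4 (0.73, adjusted p = 0.0689). At 3 dpi wild-type saline replicate 1 was high in both genes, at 980 for Cryab and 1608 for Hspb6, and without it the differences were 1.34 (adjusted p = 0.0163) and 1.00 (adjusted p = 0.0135), against 0.92 ± 0.31 (adjusted p = 0.118) and 0.75 ± 0.22 (adjusted p = 0.0561) with it. Hspb2 and Bag3 did not pass on any day, with Bag3 between 0.38 and 0.47 and Hspb2 between 0.06 and 0.23. The Bag3 difference at 21 dpi passed with only the groups compared in the fit (adjusted p = 0.00286).

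Slow fibre markers moved with the saline genotype difference. Their summed level over 10 genes was 568 to 1771 normalised counts in homozygous saline muscle and 310 to 591 in wild-type saline muscle at 3 dpi, with 4 of 10 called higher. At 7 dpi it was 619 to 1010 and 240 to 537, and at 21 dpi 532 to 642 and 260 to 462, with 2 of 10 called higher on each day. Over all genes 1.71%, 1.63% and 2.6% were called higher at 3, 7 and 21 dpi. The defining slow myosin Myh7 differed by 2.86 ± 1.21, 3.23 ± 1.21 and 0.61 ± 1.12 at 3, 7 and 21 dpi and passed on no day. It ranged from 3.56 to 466, 51.2 to 223 and 4.04 to 64.4 in homozygous saline muscle and from 3.24 to 24.0, 3.62 to 60.3 and 8.13 to 83.6 in wild-type saline muscle, so the genotypes overlapped on each day. None of the 10 was at 0, and their part in the result was not tested.

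The AAV response of heterozygous muscle at 7 dpi was larger than that of homozygous muscle on the same day. The difference of the responses, homozygous minus heterozygous, was called for 4 members, all lower, where 3.24% of all genes were called and 2.54% were called lower. It was -2.64 ± 0.34 for Hspb1 (adjusted p = 1.3e-06), -2.32 ± 0.52 for Hspb7 (adjusted p = 0.00406), -1.39 ± 0.40 for Cryab (adjusted p = 0.037) and -1.13 ± 0.22 for Hspb8 (adjusted p = 0.000808). Hspb6 stood at -0.94 ± 0.28 (adjusted p = 0.0534), Bag3 at -0.48 ± 0.26 and Hspb2 at -0.27 ± 0.18, and these did not pass. The Hspb6 difference passed without heterozygous AAV replicate 4, heterozygous saline replicate 2 or homozygous saline replicate 2 or 4 (0.00893 to 0.0484).

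Both the AAV levels and the saline levels enter this difference. In AAV muscle at 7 dpi Hspb8 had 715 to 1304 normalised counts in homozygous and 832 to 1216 in heterozygous muscle, which overlap, while in saline muscle it had 382 to 636 and 214 to 253, which do not. Cryab in AAV muscle had 1088 to 1387 in homozygous and 2003 to 2863 in heterozygous libraries, and Hspb7 had 1228 to 1924 and 2857 to 3885. For Cryab and Hspb7 the AAV libraries of the genotypes were therefore apart. Homozygous saline replicate 1, the highest of its group for all 7 members, enlarged the differences, and without it they were -2.23 for Hspb1 (adjusted p = 3.41e-06), -2.01 for Hspb7 (adjusted p = 0.0246), -0.97 for Hspb8 (adjusted p = 0.00591) and -1.09 for Cryab (adjusted p = 0.165). The Cryab difference lost its call without that library or any 1 of 9 others: homozygous AAV replicates 1, 3 and 5, homozygous saline replicate 3, heterozygous AAV replicates 2 and 3, and heterozygous saline replicates 1, 3 and 4 (largest adjusted p 0.165 over all 10). The transgene stood at 14.3 to 29.0 normalised counts in homozygous and 56.9 to 114 in heterozygous AAV muscle, and its part in the difference was not tested. Slow fibre markers summed to 492 to 752 in homozygous and 661 to 747 in heterozygous AAV muscle, against 619 to 1010 and 285 to 498 with saline, and their part was not tested either.

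Against the vector response of wild-type muscle, which shares its samples between the next comparisons of a day, Hspb8 was the member that responded more in homozygous muscle on all 3 days. Transgene levels were not matched between these genotypes. They were 31.2 to 80.6 normalised counts in homozygous and 3.31 to 48.4 in wild-type AAV muscle at 3 dpi. At 7 dpi they were 14.3 to 29.0 and 158 to 324, and at 21 dpi 127 to 1103 and 111 to 1267. The part of the transgene in the differences was not tested. The difference of responses, homozygous minus wild type, called Hspb1 (1.53 ± 0.36, adjusted p = 0.00447) and Hspb8 (1.14 ± 0.23, adjusted p = 0.00131) at 3 dpi, where 9.75% of all genes were called. At 7 dpi it called Hspb8 alone (1.14 ± 0.23, adjusted p = 0.000481), against 20.2% of all genes. At 21 dpi it called Hspb8 higher (0.75 ± 0.22, adjusted p = 0.0367) and Hspb6 lower (-0.96 ± 0.29, adjusted p = 0.0386), against 5.62% of all genes. With the replicate number as a block the Hspb6 difference had an adjusted p of 0.0744. Both 21 dpi calls were near the threshold: leaving out 1 library at a time ended the Hspb8 call 9 times (0.0546 to 0.126) and the Hspb6 call 11 times (0.0528 to 0.112). The Hspb8 call held without homozygous AAV replicate 1 or 4, homozygous saline replicate 2 or 3, wild-type AAV replicate 3 or 4 or wild-type saline replicate 4. The Hspb6 call held without homozygous AAV replicate 4, homozygous saline replicate 4, wild-type AAV replicate 3 or 4 or wild-type saline replicate 2. At 7 dpi heterozygous minus wild type called 5 members, against 20.2% of all genes: Hspb1 (3.05 ± 0.36), Hspb7 (2.84 ± 0.55), Hspb8 (2.26 ± 0.23), Cryab (2.17 ± 0.42) and Hspb2 (0.76 ± 0.19), with adjusted p-values of 4.14e-09 to 0.00385. Without homozygous saline replicate 1 the homozygous minus wild-type difference at 7 dpi also passed for Hspb1 (0.82, adjusted p = 0.0484) and Hspb2 (0.54, adjusted p = 0.0462). Hspb2 likewise passed without homozygous AAV replicate 1 (0.55, adjusted p = 0.0324) or wild-type AAV replicate 2 (0.56, adjusted p = 0.0391). At 3 dpi Cryab, at 1.13 ± 0.41 (adjusted p = 0.0684), passed without homozygous saline replicate 3 (adjusted p = 0.0484) or wild-type AAV replicate 3 (adjusted p = 0.0297). In heterozygous minus wild type, Bag3 (0.74 ± 0.28, adjusted p = 0.0558) passed without heterozygous AAV replicate 1, heterozygous saline replicate 2, wild-type AAV replicate 2 or wild-type saline replicate 3 (0.0407 to 0.049), and Hspb6 (0.66 ± 0.30, adjusted p = 0.114) without heterozygous saline replicate 2 (adjusted p = 0.0293).

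Between days, the homozygous response of Hspb1 was lower at 7 than at 3 dpi by a difference of -1.22 ± 0.34 (adjusted p = 0.0228), the single member called where 5.96% of all genes were called. This call ended without homozygous saline replicate 1 of 7 dpi (-0.81, adjusted p = 0.0961) or homozygous saline replicate 1 or 2 of 3 dpi (0.0588 and 0.0618). Between 21 and 7 dpi limma called 0 members in homozygous muscle, where 13.8% of all genes were called; Hspb8 was nearest, at 0.45 ± 0.22 (unadjusted p = 0.0444 in the limma fit, adjusted p = 0.164), and was the single member with an unadjusted p under 0.05. It passed without AAV replicate 1 of 21 dpi (0.63, adjusted p = 0.0492). In wild-type muscle the response of Hspb8 was higher at 21 than at 7 dpi (0.84 ± 0.23, adjusted p = 0.00889), the single member called against 19.2% of all genes.

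Of the other small heat shock genes listed, Hspb9, Cryaa and Odf1 were not analysed here. Hspb3, the partner of Hspb2 in muscle, was higher with AAV in heterozygous muscle at 7 dpi (1.37 ± 0.16, adjusted p = 3.87e-09), in homozygous muscle at 7 dpi (0.80 ± 0.15, adjusted p = 3.77e-05) and 21 dpi (0.45 ± 0.16, adjusted p = 0.0144), and in wild-type muscle at 21 dpi (0.81 ± 0.16, adjusted p = 6.68e-05). Hspb11, the other one tested, was higher with AAV at 7 dpi in heterozygous muscle (0.54 ± 0.18, adjusted p = 0.0132) and homozygous muscle (0.49 ± 0.17, adjusted p = 0.0149), and did not pass at 3 or 21 dpi. Of the 5 other Bag genes, 1 was called higher with AAV in heterozygous muscle at 7 dpi (Bag2, 0.36 ± 0.10), where 19.6% of all genes were called higher. In homozygous muscle 0 were called higher on any day, against 17.4%, 20.6% and 29.7% of all genes at 3, 7 and 21 dpi. Bag1 was lower at 3 dpi (-0.23 ± 0.09), Bag5 at 7 dpi (-0.29 ± 0.10), and Bag5 and Bag6 at 21 dpi (-0.27 ± 0.11 and -0.21 ± 0.09).

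Of 22 genes of chaperone-assisted autophagy, 6 were higher and 4 lower in homozygous AAV muscle at 3 dpi, 3 and 5 at 7 dpi and 7 and 8 at 21 dpi, and in heterozygous AAV muscle at 7 dpi 7 were higher and 2 lower. Over all genes 34.6%, 43.1%, 59.3% and 40.4% were called in these comparisons. The list's median log2 change was 0.03, -0.04, -0.08 and 0.04 in these comparisons, against -0.013, -0.007, 0 and -0.005 over all genes. Synpo2, the synaptopodin-2 that ties Bag3 to autophagosome formation, was lower in homozygous muscle on each day, by -0.88 ± 0.13, -0.44 ± 0.13 and -0.47 ± 0.13, and stood at 0.01 ± 0.13 in heterozygous muscle. Sqstm1 (p62), the autophagy receptor, was higher at 3 dpi in homozygous muscle (0.64 ± 0.12, adjusted p = 3.43e-05) and at 7 dpi in heterozygous muscle (0.66 ± 0.12, adjusted p = 1.26e-05). Stub1, the ubiquitin ligase of the complex, was lower in homozygous muscle at 3 dpi (-0.29 ± 0.09) and 21 dpi (-0.25 ± 0.09), and Hspa8, its constitutive Hsp70, at 7 dpi (-0.38 ± 0.11). Dnajb6, a J-domain partner of Bag3, was higher in heterozygous muscle (0.24 ± 0.07) and lower in homozygous muscle at 21 dpi (-0.26 ± 0.07).

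Among 16 tested sarcomere and filament proteins that these chaperones serve, 7 were higher and 1 lower in heterozygous AAV muscle at 7 dpi, and 2 were higher and 5 lower in homozygous AAV muscle on that day, against 40.4% and 43.1% of all genes called. The list's medians were 0.07 and -0.10. In heterozygous muscle Xirp1 and Xirp2, Xin-repeat proteins that bind filamin C and actin, stood at 2.65 ± 0.42 and 1.78 ± 0.15, and Flnc, filamin C, at 1.71 ± 0.29. In homozygous muscle at 7 dpi the same 3 stood at -0.11 ± 0.40, 0.10 ± 0.15 and -0.01 ± 0.27 and none passed. Desmin (Des), the intermediate filament that Cryab binds, was higher in both, at 1.20 ± 0.11 and 0.99 ± 0.11. Titin (Ttn) itself stood at -0.25 ± 0.13 in heterozygous muscle, which did not pass, and was lower in homozygous muscle at 7 dpi (-0.57 ± 0.12). In saline muscle at 21 dpi, homozygous against wild type, 6 of the 16 were higher and 0 lower, against 3.32% of all genes called (2.6% higher). Among the 6 were Xirp2 (0.78 ± 0.15), Xirp1 (1.56 ± 0.42), Flnc (1.00 ± 0.29) and Des (0.38 ± 0.11).

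Of 25 heat shock factors and their other targets and co-chaperones, 10 were higher and 3 lower in heterozygous AAV muscle at 7 dpi, and 7 and 2, 4 and 9, and 6 and 9 in homozygous AAV muscle at 3, 7 and 21 dpi. The background was 40.4% of all genes in heterozygous muscle and 34.6%, 43.1% and 59.3% in homozygous muscle at 3, 7 and 21 dpi. Counted in either direction, the list's shares at 3 and 21 dpi are near it. The inducible Hsp70 gene Hspa1b was higher in homozygous AAV muscle at 3 dpi (2.85 ± 0.41, adjusted p = 7.73e-07) and in heterozygous AAV muscle at 7 dpi (2.19 ± 0.41, adjusted p = 3.05e-05). Counting may have split reads between Hspa1b and its near-identical copy Hspa1a, so its value is uncertain. Hsf1, the heat shock factor itself, was not called at 3 or 7 dpi in homozygous or heterozygous muscle and was lower at 21 dpi in homozygous muscle (-0.28 ± 0.10).

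Markers of other cell types moved in the same comparisons. In homozygous AAV muscle 17.4%, 20.6% and 29.7% of all genes were called higher at 3, 7 and 21 dpi (34.6%, 43.1% and 59.3% in either direction). These shares were 19.6% (40.4%) in heterozygous AAV muscle at 7 dpi and 19.7% (40.9%) in wild-type AAV muscle at 21 dpi. Macrophage markers were called higher in 14 of 15 cases in homozygous AAV muscle on each day, in 13 of 15 in heterozygous AAV muscle at 7 dpi and in 14 of 15 in wild-type AAV muscle at 21 dpi. Their summed level at 7 dpi was 329 to 531 normalised counts in homozygous AAV and 246 to 443 in heterozygous AAV muscle, against 78.5 to 121 and 68.6 to 121 with saline, and Fcgr1, at 0.025 in its lowest library, was the nearest of them to 0. In wild-type muscle at 21 dpi, where Hspb1 and Hspb8 rose, the macrophage sum was 348 to 1131 with AAV and 70.9 to 90.0 with saline. Regenerating fibre markers were called higher in 5 of 7 tested in heterozygous AAV muscle, summing to 293 to 438 with AAV and 40.1 to 52.2 with saline, and in 5 of 7 in wild-type AAV muscle at 21 dpi, with 113 to 824 and 36.6 to 39.7. In homozygous AAV muscle 2, 5 and 6 of these 7 were higher at 3, 7 and 21 dpi. Fibroblast markers were higher in 7 of 9 in heterozygous AAV muscle, summing to 2582 to 4444 with AAV and 730 to 1051 with saline, in 7 of 9 in wild-type AAV muscle at 21 dpi, and in 4, 7 and 7 of 9 in homozygous AAV muscle at 3, 7 and 21 dpi. Smooth muscle and pericyte markers summed to 5734 to 6870 with AAV and 3132 to 3687 with saline in heterozygous muscle, and that list holds Des. Of these 10 markers 2 were higher and 2 lower, which is near the share over all genes. Endothelial markers were lower in 7 of 10 in heterozygous AAV muscle, in 8 of 10 in wild-type AAV muscle at 21 dpi and in 4, 7 and 9 of 10 in homozygous AAV muscle. T cell markers were higher in 8 of 8 tested at 21 dpi in both genotypes, in 4 of 8 in homozygous and 0 of 8 in heterozygous AAV muscle at 7 dpi. The regenerating fibre genes Mymk and Mymx and the T cell genes Cd3d and Cd3g were near 0 in their lowest libraries. The part of these cell types in the members' changes was not tested.

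Members other than Hspb6 were more closely correlated with each other over the groups than with Hspb6, though not all were called in the same comparisons. Over the 14 group means of log2(value + 1), which share samples' scaling and groups of 3 to 5 libraries, Pearson's r between pairs without Hspb6 was 0.778 (Bag3 and Hspb2) to 0.974 (Cryab and Hspb1), and between Hspb6 and the others 0.279 (Hspb8) to 0.707 (Hspb7). Genes most like Hspb1 were Atf3, a stress-induced transcription factor (0.979), Pdlim3, an actinin-binding Z-disc protein (0.977), and Cryab. Closest to Hspb8 were Ankrd1, a titin-binding ankyrin repeat protein (0.991), Osbpl8 (0.981) and Itgb1, the beta 1 integrin (0.978). Closest to Hspb7 were Csrp3, the muscle LIM protein (0.98), Uhrf1bp1l (0.977) and Rnf115 (0.976). For Cryab the list was Pdlim3 (0.978), the calpain gene Capn2 (0.977) and Mustn1 (0.976), and for Hspb2 Capn2 (0.975), Cryab and Calu (0.972). Hspb6 had no gene as close: Fhl1, a LIM protein of the sarcomere, came first at 0.92, then Hoxc4 (0.901) and Nrap (0.892). These values describe the groups and carry no test.

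**Figure D4:**
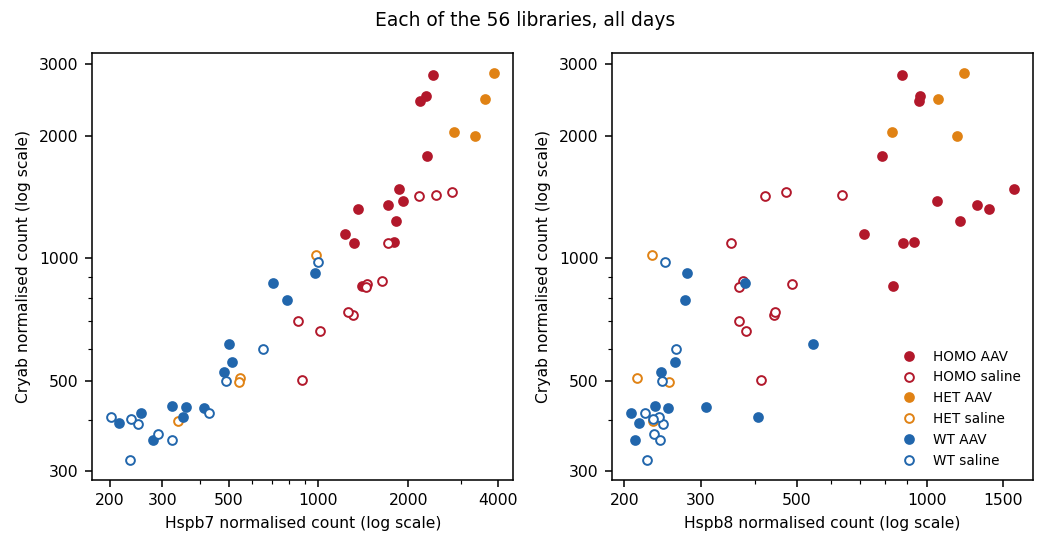
Cryab against Hspb7 (left) and against Hspb8 (right) in each of the 56 libraries, normalised counts on log axes; filled points are AAV, open points saline, and colours are genotypes. Cryab and Hspb7 range together also among saline libraries, with the 3 saline libraries of homozygous muscle highest in Cryab at 1425 to 1457, whereas wild-type saline libraries spread in Cryab from 319 to 980 at Hspb8 levels of 223 to 264.

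In 5 of the 14 groups 6 or 7 members were highest in the same library. In homozygous saline muscle the highest value of all 7 members fell in replicate 1 at 7 dpi and in replicate 3 at 3 dpi. In wild-type muscle the highest value of 6 members fell in saline replicate 1 at 3 dpi, in saline replicate 1 at 7 dpi and in AAV replicate 3 at 3 dpi. In the other 9 groups the highest values were divided between libraries, with at most 5 members sharing one. In wild-type muscle at 3 dpi the spread was wide for Hspb7, whose highest library was 4.92 times its lowest with saline and 4.54 times with AAV, and narrow for Hspb8, at 1.11 and 1.31 times. In homozygous AAV muscle at 3 dpi the ratio for Hspb7 was 1.10. No label sets these libraries apart.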

How the data were processed

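RNA from bead-lysed tibialis anterior was sequenced after directional library preparation, per the labels' protocols. FastQC, Bowtie, RSEM, limma and the genome build GRCm38/mm10 appear in the submitters' processing notes; no versions are given. The authors deposited normalised read counts (a signal on a linear scale, scaled to an effective library size) for 14871 genes in 56 columns, each matched to a sample by its name, with 0 columns left out. Adding 0.5 to whole reads and scaling gives the values back: 100.0% came out whole within 0.02 reads.

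Members and gene lists were chosen with earlier results of these data known. For testing, log2(value + 1) was fitted in limma 3.58.1 (R 4.3.3) with a trended prior, a term for each of 14 groups and 1 residual spread per gene over all 56 samples. Such fold changes understate the change of low genes. A mean of at least 1 on the deposited scale was required, which kept 13017 genes and left out 1853; p-values were adjusted over all tested genes in each of 20 comparisons. Alternatives were other pseudocounts, filters, scalings and samples in the fit, the replicate block, leaving out each library, and edgeR 4.0.16, DESeq2 1.42.0 and limma voom on recovered reads. On these edgeR called 4505, 5520 and 7765 genes in homozygous AAV against saline muscle at 3, 7 and 21 dpi, against 4505, 5616 and 7714 with limma. The steps were tested on simulated data. The labels state no pairing of AAV with saline samples. Same-numbered samples were weakly correlated in heterozygous muscle at 7 dpi (correlations of deviations from group means of 0.128 to 0.178 over 4 pairs). The same held in homozygous muscle at 21 dpi (0.165 to 0.233 over 4 pairs). Every such pair was over 0.1, and in no other AAV comparison was this so. Pairs of unlike number reached 0.068 and 0.082 in these 2 comparisons, but 0.386 in wild-type muscle at 3 dpi. The fit reported used no pairing. The transgene was not tested. Positions and exon lengths came from GENCODE M21 (GRCm38), promoters from RefSeq. Besides the members, named genes were at most 4 called genes of smallest p per list and comparison, 10 fixed chaperone and client genes, and for each member the 3 genes with the highest correlation of group means; for Bag3 these are not reported here.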

Additional observations from a re-analysis of the deposited data

Results flagged for a closer look

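In 84 sets of values (each of 7 genes in each group of 4 or 5 libraries), 1 library stood further from the others than Dixon's test allows at 95% in 2 cases, where chance gives about 1 in 20. Hspb1 in homozygous saline muscle at 7 dpi was 534 normalised counts in replicate 1 and 135 to 195 in the other 3 libraries. Cryab in wild-type AAV muscle at 7 dpi was 524 in replicate 2 and 417 to 433 in the other 3.

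The AAV response differed between genotypes by a test of the difference itself in the following cases, as log2. Homozygous minus wild type gave 1.53 for Hspb1 and 1.14 for Hspb8 at 3 dpi, 1.14 for Hspb8 at 7 dpi, and 0.75 for Hspb8 and -0.96 for Hspb6 at 21 dpi. Heterozygous minus wild type at 7 dpi gave 3.05 for Hspb1, 2.84 for Hspb7, 2.26 for Hspb8, 2.17 for Cryab and 0.76 for Hspb2. Homozygous minus heterozygous at 7 dpi gave -2.64 for Hspb1, -2.32 for Hspb7, -1.39 for Cryab and -1.13 for Hspb8. Between days, the homozygous response of Hspb1 differed by -1.22 between 7 and 3 dpi, and the wild-type response of Hspb8 by 0.84 between 21 and 7 dpi. Their causes were not tested.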

How the results depend on the processing

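Of 140 values (7 genes in 20 comparisons), 50 were called. Over 12 alternatives each, 30 calls were lost, 50 gained and 0 reversed, and 38 calls held under all 12. Leaving out 1 library at a time ended calls 76 times and gained them 26 times. Of the 38 calls, 32 also held whichever library was left out. The number of members called moved by over 1.5 times in these cases, for which the cause was not tested. With columns scaled to the same total it was 5 in homozygous AAV against saline muscle at 7 dpi (3 as reported) and 5 at 21 dpi (3), 7 in wild-type muscle at 21 dpi (2), 4, 3 and 1 in homozygous minus wild-type responses at 3, 7 and 21 dpi (2, 1 and 2), and 2 in the wild-type response between 21 and 7 dpi (1). With quantile normalization it was 5 in homozygous muscle at 21 dpi, 6 in wild-type muscle at 21 dpi, 2 in the homozygous minus wild-type response at 7 dpi, and 1 in the homozygous response between 21 and 7 dpi (0). Fitting only the groups compared, which leaves fewer samples for the spread, gave 4 in wild-type muscle at 21 dpi, 2 and 0 in homozygous minus wild-type responses at 7 and 21 dpi, 0 in the homozygous response between 7 and 3 dpi (1), 2 in the wild-type response between 21 and 7 dpi and 1 in homozygous minus wild-type saline muscle at 7 dpi (3).

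Of 26 same-numbered pairs of AAV and saline samples, 12 had a correlation of deviations over 0.1 (median 0.073, range -0.241 to 0.311), against a median of -0.05 over 85 other pairs. Only in heterozygous muscle at 7 dpi and homozygous muscle at 21 dpi was every such pair over 0.1, and the labels state no pairing. With the replicate block 6 calls were lost and 0 gained; the count was 4, 2 and 3 in homozygous muscle at 3, 7 and 21 dpi, 6 in heterozygous muscle, 1 in the homozygous minus wild-type response at 21 dpi and 0 in the homozygous response between 7 and 3 dpi.

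Leaving out 1 library at a time gave 4 to 5, 2 to 4 and 2 to 5 members in homozygous muscle at 3, 7 and 21 dpi, 6 to 7 in heterozygous muscle, and 0 to 0 (3 dpi), 0 to 0 (7 dpi) and 1 to 3 (21 dpi) in wild-type muscle. Responses gave 2 to 3, 1 to 3 and 0 to 2 (homozygous minus wild type at 3, 7 and 21 dpi), 5 to 7 (heterozygous minus wild type), 3 to 5 (homozygous minus heterozygous), 0 to 1 (homozygous, 7 minus 3 and 21 minus 7 dpi) and 1 to 1 (wild type, 21 minus 7 dpi). Saline muscle gave 0 to 5, 2 to 3 and 4 to 5 (homozygous minus wild type at 3, 7 and 21 dpi), 0 to 0 (heterozygous minus wild type) and 2 to 4 (homozygous minus heterozygous). The 0 at 3 dpi came without wild-type saline replicate 2 and the 5 without wild-type saline replicate 1. The effect of depth on the calls was not tested.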
